A study of Mus musculus with 4 samples.

Results

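The genes described here are the subunits of the proteasome, defined as every entry of the deposited table whose symbol is Psma, Psmb, Psmc, Psmd or Psme followed by a number. This rule took 43 of the 27027 entries, and 41 of them averaged 20 or more normalized reads over the 4 libraries, as did 10066 entries of the whole table. The 2 others were Psma8, a testis subunit, and Psmb11, a thymus subunit. The rule used names only and no measured value.

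Liver RNA came from male C57BL/6J mice (C57BL/6 in the labels), 9 to 12 weeks old, that had been fasted for 10 h and then injected intraperitoneally with 0.9% NaCl (control) or with APAP (acetaminophen) at 300 mg/kg. Tissue was taken 24 h or 48 h later, in the resolution phase of the liver injury. Equal shares of RNA were pooled over 6 control mice per time point and over 7 APAP mice per time point, and each pool gave 1 library by MACE (massive analysis of cDNA ends), which reads mRNA next to its poly(A) tail. The libraries held 4859661 reads on genes (control, 24 h), 5191990 (control, 48 h), 5698778 (APAP, 24 h) and 4938164 (APAP, 48 h). Each group is a single library without a replicate, and no test of APAP against control was run. Every interval printed is a 95% exact interval that covers counting error only, neither differences between mice nor between preparations.

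The proteasome degrades proteins tagged with ubiquitin. Its 20S core is a barrel of alpha rings, which gate the entry, around beta rings, which hold the active sites. The 19S particle docks on the core, recognises ubiquitin, removes it and unfolds the substrate with a ring of ATPases. Under interferon, and constitutively in blood cells, Psmb8, Psmb9 and Psmb10 take the place of the standard active subunits Psmb5, Psmb6 and Psmb7, which yields the immunoproteasome. Psme1 and Psme2 form PA28, an interferon-inducible cap of the 11S type, and both changes are known to shape the peptides shown on MHC class I molecules. These 5 genes are called immune subunits below, and the other 36 tested members are called standard subunits.

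The immune genes lie in pairs or alone. On the mouse build GRCm38, Psmb9 (chr17:34181987-34187764, minus strand) and Psmb8 (chr17:34197721-34201454, plus strand) lie close together in the MHC region. Psme1 (chr14:55578123-55581529, plus strand) and Psme2 (chr14:55587441-55591113, minus strand) lie close together on chromosome 14. Psmb10 lies at chr8:105935735-105938444 on the minus strand, and the standard gene Psmb5 at chr14:54614119-54618022 on the minus strand. Promoters, taken as 250 bases before to 50 bases after the start, were found in the RefSeq set (GRCm38.p6) for 36 of the 43 members. The gene spans above come from another annotation (GENCODE M21), and the starts differ. The windows of Psmb8, Psmb9 and Psme1 lie inside these spans. The promoters of Psmb8, Psmb9 and Psme1 are shown because these were the members furthest below control in both APAP libraries, and stretches of the Psmb5 and Psmb6 promoters because these are the standard partners of Psmb8 and Psmb9. Capitals mark matches to 3 motifs searched on both strands: TTCNNNGAA, the GAS element of interferon gamma signalling; GAAA and GAAA with 2 bases between them, the core of the interferon-stimulated response element; and TGACNNNGC, the core of the antioxidant response element bound by Nfe2l1 and Nfe2l2.

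Psmb8 promoter (chr17:34197945-34198244, plus strand): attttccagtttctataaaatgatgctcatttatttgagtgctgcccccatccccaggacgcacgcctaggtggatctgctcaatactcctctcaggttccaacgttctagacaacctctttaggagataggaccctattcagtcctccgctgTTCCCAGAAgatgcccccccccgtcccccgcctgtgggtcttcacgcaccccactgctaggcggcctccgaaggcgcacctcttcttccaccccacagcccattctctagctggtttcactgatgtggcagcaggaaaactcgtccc

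Psmb9 promoter (chr17:34187281-34187580, minus strand): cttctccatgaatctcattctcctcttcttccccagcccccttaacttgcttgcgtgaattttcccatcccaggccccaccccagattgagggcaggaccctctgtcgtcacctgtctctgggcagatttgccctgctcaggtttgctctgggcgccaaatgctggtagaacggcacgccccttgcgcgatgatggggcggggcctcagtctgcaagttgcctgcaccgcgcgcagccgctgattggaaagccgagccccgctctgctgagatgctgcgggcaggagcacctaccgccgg

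Psme1 promoter (chr14:55578244-55578543, plus strand): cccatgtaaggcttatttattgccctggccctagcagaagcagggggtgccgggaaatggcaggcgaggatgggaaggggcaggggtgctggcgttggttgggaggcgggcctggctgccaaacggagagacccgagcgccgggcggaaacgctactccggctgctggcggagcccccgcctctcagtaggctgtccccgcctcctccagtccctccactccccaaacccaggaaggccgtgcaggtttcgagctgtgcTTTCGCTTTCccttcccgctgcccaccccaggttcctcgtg

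Psmb5 promoter stretch (chr14:54617994-54618082, minus strand): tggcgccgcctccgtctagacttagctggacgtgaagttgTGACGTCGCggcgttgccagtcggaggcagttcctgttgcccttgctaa

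Psmb6 promoter stretch (chr11:70525308-70525396, plus strand): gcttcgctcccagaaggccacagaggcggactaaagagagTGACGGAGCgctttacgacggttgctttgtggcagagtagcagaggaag

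In Psmb8 the capitals mark a GAS match, and in Psme1 they mark the interferon core on the opposite strand. Psmb9 held none of the 3 motifs in this window, which says only that these letters are not in it. In Psmb5 and Psmb6 the capitals mark the antioxidant core. Of the 36 members with a promoter, 6 (16.7%) held the antioxidant core (Psmb5, Psmb6, Psmc6, Psmd9, Psmd12 and Psme4), against 14.0% of 27025 genes. The interferon core was in 4 members (11.1%: Psmb3, Psmd4, Psmd9 and Psme1) against 3.99% of all genes, and GAS in 2 (5.56%: Psmb8 and Psmd2) against 9.55%. By kind, the antioxidant core was in 6 of 30 standard and 0 of 5 immune promoters, the interferon core in 3 of 30 and 1 of 5, and GAS in 1 of 30 and 1 of 5.

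The tissue label was checked against hepatocyte markers. Alb, the serum albumin gene, had 208729 and 225055 reads in the control libraries at 24 h and 48 h and 243213 and 254523 reads in the APAP libraries, and the 8 hepatocyte markers together held between 90691 and 107400 RPM, reads scaled to the library total, in every library. In whole liver, fewer cells of a type and less RNA per cell cannot be told apart.

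The immune subunits were the members that stood out. A difference was counted where a gene's normalized reads (reads divided by a median-of-ratios size factor) differed at least 1.5-fold between the APAP and the control library of the same time point. At 24 h, 0 of the 41 members were higher, where 11.5% of all 10066 tested genes were, and 3 members (7.32%) were lower, where 13.3% of all genes were. At 48 h, 0 members were higher (10.6% of all genes) and 3 (7.32%) were lower (13.6% of all genes). Members past the threshold were therefore fewer than among all tested genes in both directions. That background also holds genes with fewer reads than most members. Of the genes averaging 100 or more normalized reads, as 39 of the 41 members did, 6.62% were higher and 15.1% lower at 24 h. At 48 h these shares were 4.93% and 15.8%. The 3 lower members were Psmb8, Psmb9 and Psme1 at both time points, and all 3 belong to the 5 immune subunits. Scaled by library totals all 3 were still past the threshold at 24 h, while at 48 h only Psmb9 was. Psme1 at 48 h also lay short of it against the control pool of the other time point (0.833 times) and against the sum of both control pools (0.724 times), where Psmb8 and Psmb9 passed.

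**Figure D1:**
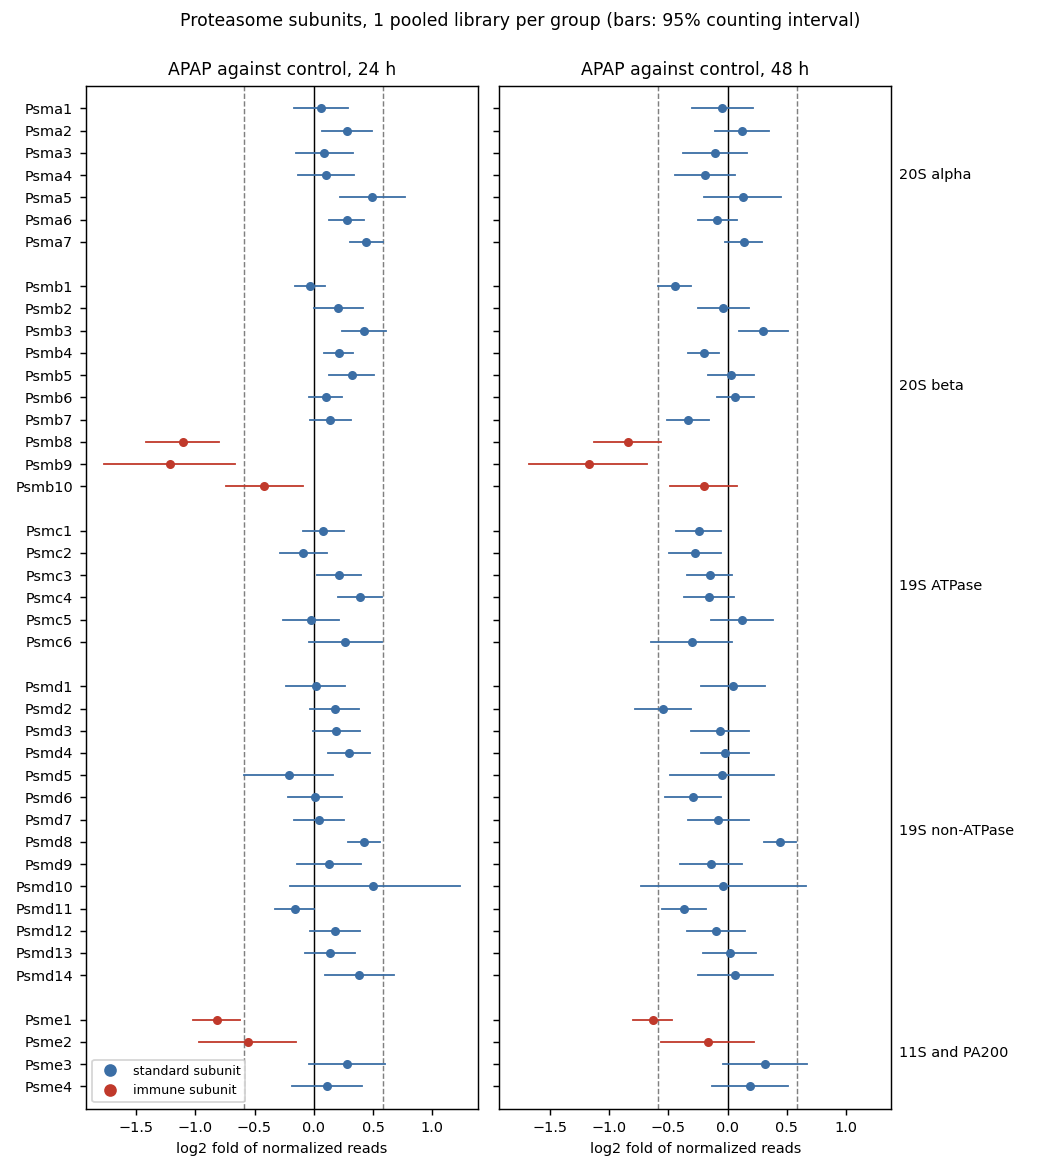
Log2 fold (APAP against control of the same time point, horizontal axis) of each of the 41 tested proteasome subunits at 24 h (left) and 48 h (right), by subcomplex, with 95% exact counting intervals as bars, the 1.5-fold limits as dashed lines, standard subunits in blue and immune subunits in red. All 5 immune subunits lie left of 0 in both panels, and 31 of the 36 standard subunits lie right of 0 at 24 h, against 13 at 48 h. Of all 10066 tested genes (not drawn), 5000 had a fold above 1 at 24 h and 4726 at 48 h.

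Psmb8, the immune form of the chymotrypsin-like subunit, had 260.3 normalized reads in the control library and 121 in the APAP library at 24 h, and 287 and 160.3 at 48 h. Both APAP libraries lay below both control libraries. Its level after APAP was 0.465 times control at 24 h (interval 0.374 to 0.575) and 0.558 times control at 48 h (0.458 to 0.678).

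Psmb9, the immune form of the caspase-like subunit, had 88.7 normalized reads in control and 38.3 after APAP at 24 h, and 112 and 49.7 at 48 h. Again the libraries of APAP mice were the lower ones at both times, at 0.432 times control (0.293 to 0.632) and 0.446 times control (0.314 to 0.626). These were the lowest folds of any tested member at 24 h and 48 h, on raw counts of 45 to 104 reads, the fewest of the 5 immune subunits.

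Psmb10, the immune form of the trypsin-like subunit, behaved differently from its 2 relatives. It had 181 normalized reads in control and 135 after APAP at 24 h, and 226 and 197 at 48 h, so that the APAP library at 48 h lay above the control library at 24 h. The folds were 0.749 (0.598 to 0.939) and 0.870 (0.716 to 1.06), and the second exceeded 1 with library totals (1.05). Relative to Psmb8, the fold of Psmb10 was 1.61 times as large at 24 h (1.18 to 2.21) and 1.56 times as large at 48 h (1.18 to 2.06). Relative to Psmb9 it was 1.73 times (1.11 to 2.73) and 1.95 times as large (1.31 to 2.92). All 4 intervals leave out 1, and the ratios do not depend on the size factors. The folds of Psmb8 and Psmb9 could not be separated from each other at this depth, with ratios of 1.07 (0.691 to 1.68) and 1.25 (0.841 to 1.88).

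**Figure D2:**
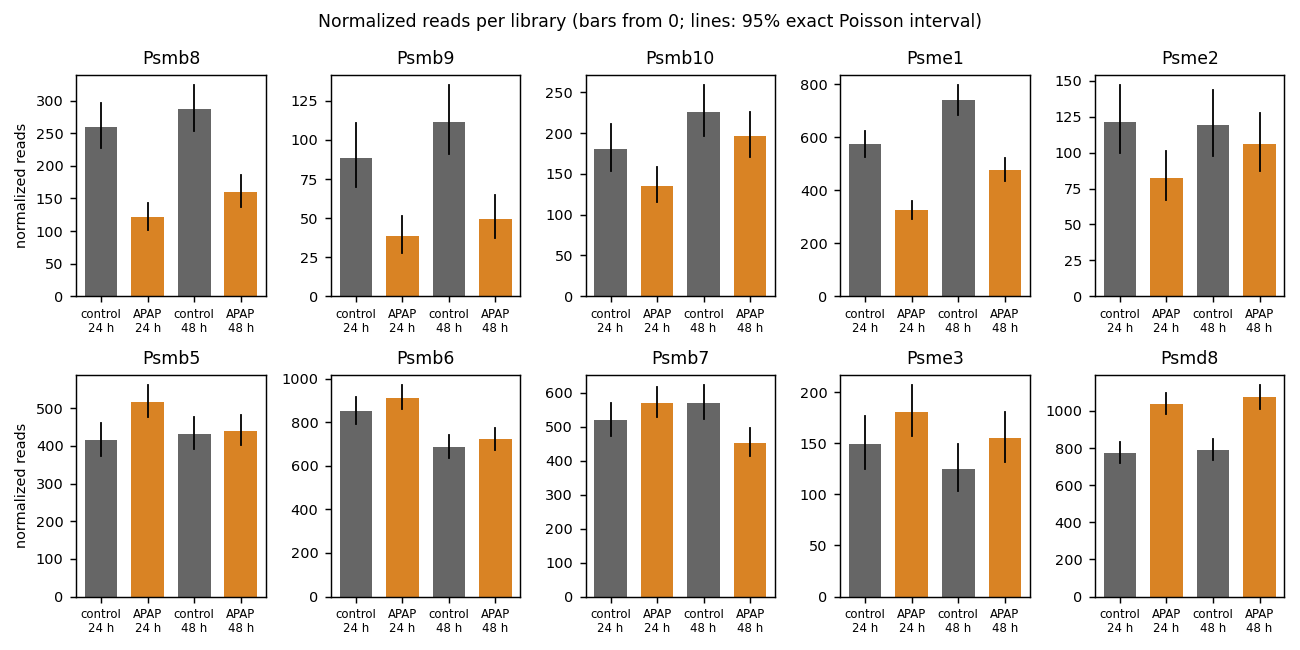
Normalized reads (vertical axis, from 0) in the 4 libraries for the 5 immune subunits (upper row) and for Psmb5, Psmb6, Psmb7, Psme3 and Psmd8 (lower row), control in grey and APAP in orange, with 95% exact Poisson intervals as lines and 1 pooled library per bar. Psmb8, Psmb9 and Psme1 are lower in both APAP libraries than in either control library, while Psmd8 is higher in both.

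The standard partners in the same core positions were not lower at 24 h. Psmb5 had 415 normalized reads in control and 518 after APAP at 24 h, and 432 and 441 at 48 h. That is a fold of 1.25 (1.09 to 1.43) and 1.02 (0.891 to 1.17), with both APAP libraries above both controls. Psmb6 had 853 and 913 at 24 h and 688 and 721 at 48 h, with folds of 1.07 (0.975 to 1.18) and 1.05 (0.942 to 1.17). Its folds depended on the control used. They were 1.33 (1.20 to 1.47) and 0.846 (0.764 to 0.936) against the control pool of the other time point. Psmb7, the partner of Psmb10, had 518 and 571 at 24 h and 570.4 and 453 at 48 h. The fold of Psmb7 was thus 1.10 (0.976 to 1.24) at 24 h and 0.794 (0.700 to 0.900) at 48 h.

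Comparing immune with standard reads inside each library removes the size factors altogether. Psmb8, Psmb9 and Psmb10 together made up 22.9% of the reads of the 6 active beta genes in the control library at 24 h (466 of 2037 reads, interval 21.1% to 24.8%) and 27.0% in the control library at 48 h (25.1% to 28.9%). After APAP the share was 12.8% at 24 h (11.6% to 14.2%) and 20.1% at 48 h (18.5% to 21.9%). The odds of an immune read after APAP were thus 0.496 times those in control at 24 h (0.425 to 0.580) and 0.682 times at 48 h (0.590 to 0.788). The 2 control libraries differed too, by a ratio of 1.25 (1.08 to 1.44) for 48 h against 24 h, which is smaller than the APAP difference at either time. Set against the control library of the other time point, the APAP ratios became 0.398 and 0.850, so the size at 48 h depended on which control was used while its direction did not. Between the APAP libraries the ratio was 1.71 times as high at 48 h as at 24 h (1.46 to 2.00).

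Each pair was also read on its own. For Psmb8 against Psmb5 the odds ratio was 0.373 (0.289 to 0.480) in the 24 h libraries and 0.547 (0.430 to 0.696) in those at 48 h, and for Psmb9 against Psmb6 it was 0.404 (0.270 to 0.598) and 0.426 (0.295 to 0.609). For Psmb10 against Psmb7 it was 0.681 (0.526 to 0.881) in the 24 h libraries and 1.10 (0.868 to 1.39) in those at 48 h. At 48 h the lower immune share therefore came from 2 of the 3 pairs.

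**Figure D3:**
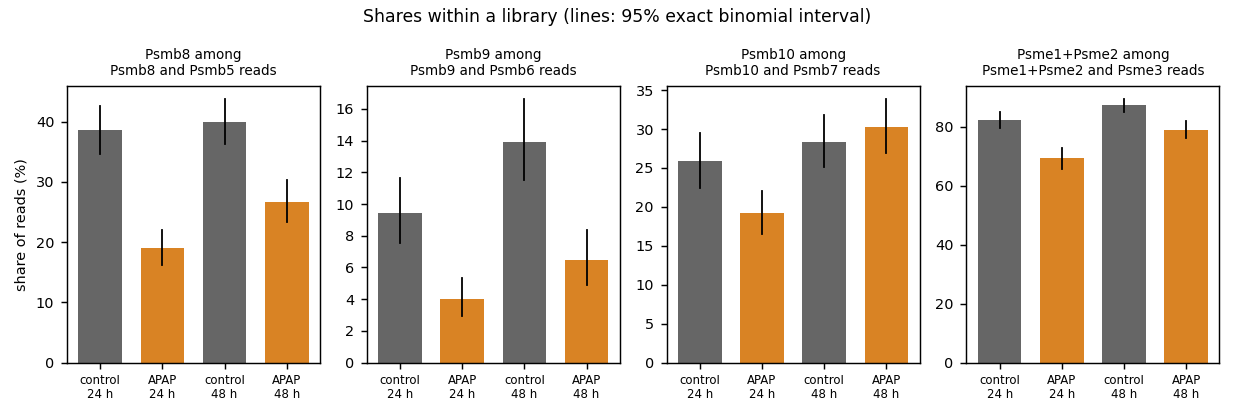
Share of reads (vertical axis, percent, from 0) that belonged to the immune gene of each pair in the 4 libraries, control in grey and APAP in orange, with 95% exact binomial intervals as lines. The share of Psmb8 among Psmb8 and Psmb5 reads goes from 38.6% in control to 18.9% after APAP at 24 h and from 39.9% to 26.7% at 48 h, while that of Psmb10 among Psmb10 and Psmb7 reads goes from 28.4% to 30.3% at 48 h.

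Of the caps other than the 19S particle, the 2 interferon-inducible genes lay below control at both times and the 2 others above it, though Psme2 was within counting error at 48 h. Psme1, the alpha subunit of PA28, had 573 normalized reads in control and 325 after APAP at 24 h, and 740 and 477 at 48 h. Its folds were 0.566 (0.494 to 0.648) and 0.645 (0.574 to 0.724), and both APAP libraries lay below both controls. Psme2, the beta subunit, had 122 and 82.6 at 24 h and 119 and 106 at 48 h. Its fold of 0.679 (0.511 to 0.902) at 24 h lay just inside the 1.5-fold limit, and its fold at 48 h was 0.890 (0.679 to 1.17), or 1.07 with library totals. The fold of Psme2 relative to Psme1 was 1.20 (0.873 to 1.65) in the 24 h libraries and 1.38 (1.03 to 1.86) in those at 48 h.

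Psme3, which forms a nuclear cap of the same family and is not induced by interferon, had 149 and 181 normalized reads at 24 h and 124 and 155 at 48 h. The folds were 1.21 (0.971 to 1.52) and 1.24 (0.975 to 1.59), and both APAP libraries lay above both controls. Psme4, the nuclear cap PA200, had 186 and 201 at 24 h and 159 and 181 at 48 h, with folds of 1.08 (0.880 to 1.32) and 1.14 (0.916 to 1.42). All 4 intervals hold 1, whereas with library totals none does, at folds of 1.38 and 1.5 for Psme3 and 1.23 and 1.37 for Psme4. Set against the control pool of the other time point, the folds were 1.45 and 1.04 for Psme3 and 1.27 and 0.971 for Psme4. Psme4 at 48 h was then below control. Within libraries, the odds of a Psme1 or Psme2 read against a Psme3 read were 0.484 times control (0.374 to 0.624) at 24 h and 0.546 times control (0.417 to 0.713) at 48 h.

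The standard subunits lay mostly on the other side of control at 24 h, and closer to it. Of the 36, 31 had a fold above 1 at 24 h with a median log2 fold of 0.18, where the median of all tested genes was -0.00, and 13 had one above 1 at 48 h with a median of -0.06, where that of all genes was -0.03. Of all 10066 tested genes, 5000 had a fold above 1 at 24 h and 4726 at 48 h. Most members are well covered, 39 of 41 averaging 100 or more normalized reads, and all genes above that level had medians of -0.07 and -0.10. Summed over the 36 standard subunits, normalized reads were 1.14 times control (1.11 to 1.16) at 24 h and 0.953 times control (0.930 to 0.976) at 48 h. Summed over the 5 immune subunits they were 0.573 times (0.523 to 0.628) and 0.667 times control (0.615 to 0.723). Size factors set these values, since scaling by library totals adds 0.19 at 24 h and 0.27 at 48 h to every log2 fold. With it the sum of all 41 members at 48 h changes sides, from 0.925 to 1.11 times control, while at 24 h it stays above 1 (1.09 and 1.24).

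By counting error alone, with an interval that leaves out 1, 13 members were higher at 24 h (31.7%) against 16.5% of all genes, and all 13 were standard subunits. Against the control pool of the other time point 23 were higher (17.8% of all genes), and against the sum of both control pools 22 were (19.5%). In the lower direction 5 members passed (12.2%) against 20.9% of all genes, and these were the 5 immune subunits. With library totals 29 members were higher at 24 h (29.5% of all genes) and 3 lower (13.4% of all genes), since the intervals of Psmb10 (0.680 to 1.07) and Psme2 (0.581 to 1.03) then hold 1. At 48 h, 2 members were higher (4.88%), Psmb3 and Psmd8, against 14.8% of all genes, and 11 were lower (26.8%) against 21.5%. The 11 comprised the 3 immune subunits Psmb8, Psmb9 and Psme1 and the 8 standard subunits Psmb1, Psmb4, Psmb7, Psmc1, Psmc2, Psmd2, Psmd6 and Psmd11. With library totals, 16 were higher (31.9% of all genes) and 5 lower (11.2%), namely Psmb1, Psmb8, Psmb9, Psmd2 and Psme1. Against the control pool of the other time point 1 was higher (14.5% of all genes) and 21 were lower (20.9%), and against the sum of both control pools 17 were (22.8%).

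The alpha ring, whose subunits gate the core, was the subcomplex with the largest summed fold at 24 h. All 7 tested alpha subunits had folds above 1 then, from 1.04 for Psma1 to 1.41 for Psma5, and their sum was 1.21 times control (1.16 to 1.28). At 48 h the sum was 1.0 times control (0.95 to 1.06), with folds between 0.878 (Psma4) and 1.10 (Psma7). Psma5 had 196 normalized reads in control and 275 after APAP at 24 h, and 154 and 169 at 48 h. Its fold was 1.41 (1.17 to 1.70) and 1.09 (0.873 to 1.37). Psma7 had 719.6 and 978 at 24 h and 652 and 716 at 48 h, a fold of 1.36 (1.23 to 1.5) and 1.10 (0.987 to 1.22). For both genes the APAP library at 48 h did not exceed the control library at 24 h, so the 2 conditions overlapped. Psma8, with 4 to 9 reads per library, was not tested.

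The 7 standard beta subunits summed to 1.12 times control (1.08 to 1.17) at 24 h and 0.910 times control (0.872 to 0.95) at 48 h, and the latter exceeds 1 with library totals. Psmb3, a beta subunit without an active site, was among the 5 highest members at both times. It had 429 normalized reads in control and 573 after APAP at 24 h, and 359 and 443 at 48 h, with folds of 1.34 (1.18 to 1.52) and 1.23 (1.07 to 1.42). Both APAP libraries lay above both controls. Psmb1, another beta subunit without an active site, lay at 0.977 times control (0.893 to 1.07) at 24 h and 0.735 times control (0.667 to 0.809) at 48 h. Psmb11 had 1 read in the control library at 24 h and 0 reads in the 3 others, which allows up to 3 reads in each of them.

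The 6 ATPases of the 19S base, Psmc1 to Psmc6, which unfold the substrate, summed to 1.10 times control (1.04 to 1.17) at 24 h and 0.887 times control (0.834 to 0.944) at 48 h, the latter above 1 with library totals. Psmc4 had the highest fold of the 6 at 24 h, 1.31 (1.15 to 1.49), and Psmc2 the lowest, 0.941 (0.821 to 1.08). At 48 h, Psmc5 alone was above 1, at 1.09 (0.907 to 1.31).

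The 14 non-ATPase members, Psmd1 to Psmd14, include the lid, the ubiquitin receptors and a few assembly chaperones. They summed to 1.12 times control (1.08 to 1.16) at 24 h and 0.984 times control (0.943 to 1.03) at 48 h. Psmd8, a lid subunit, had nearly the same fold at both times. It had 774 normalized reads in control and 1038 after APAP at 24 h, and 789 and 1074 at 48 h, with folds of 1.34 (1.22 to 1.48) and 1.36 (1.24 to 1.49). The 2 control libraries lay close together and both APAP libraries lay above them. Of the 41 members, Psmd8 and Psmb3 had intervals above 1 at both time points (4.88%, against 6.5% of all genes), with size factors and the control of the same time. With library totals 14 members had (16.6% of all genes), and against the control pool of the other time point Psmd8 alone had (6.19% of all genes), where Psmb3 lay at 1.03 times control (0.900 to 1.19) at 48 h.

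Psmd10, known as gankyrin, is a chaperone of base assembly rather than a part of the finished particle. It had 30.7 normalized reads in control and 43.4 after APAP at 24 h, and 37.5 and 36.6 at 48 h. Its fold at 24 h, 1.42 (0.871 to 2.35), was the highest of all members, but it rested on 27 to 51 reads and its interval spans 1. Psmd14, the deubiquitinase of the lid, had a fold of 1.31 (1.07 to 1.6) at 24 h and 1.05 (0.840 to 1.31) at 48 h. Psmd4, a ubiquitin receptor, had folds of 1.23 (1.09 to 1.39) and 0.986 (0.859 to 1.13).

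The fold of the standard subunits was lower at 48 h than at 24 h. This held for 30 of the 36, and for 5347 of all 10066 tested genes, whereas all 5 immune subunits had the higher fold at 48 h. An exact conditional test of the 4 counts of a gene asked whether its folds at the 2 times differed, with Benjamini-Hochberg adjustment over 10066 genes. The test compares 4 libraries and not mice, and its p-values, like the intervals, cover counting error only. It called 7 members (17.1%) as lower at 48 h, where 6.86% of all genes were, and 0 members as higher, where 5.4% of all genes were. The test calls smaller differences at higher read depth, and these shares of all genes are not matched to the members for depth.

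The 7 were spread over the core and the base. Psmd2, a ubiquitin receptor of the base, had 366 normalized reads in control and 414 after APAP at 24 h, and 365 and 250.3 at 48 h. Its fold at 48 h was 0.608 times that at 24 h (0.488 to 0.756, adjusted p = 0.000113), from 1.13 to 0.687, and 0.687 was the lowest fold of any standard subunit. The APAP library at 48 h was the one that stood apart, below the 3 others. The ratio of folds was 0.753 for Psmb4 (adjusted p = 0.000123), 0.752 for Psmb1 (0.000374), 0.686 for Psmc4 (0.00207) and 0.721 for Psmb7 (0.00306), all by the same exact test. For the alpha subunits Psma6 and Psma7 it was 0.778 and 0.809, with adjusted p = 0.0137 and 0.0376 by that exact test. No immune subunit passed it. The ratios for Psmb8, Psmb9, Psmb10, Psme1 and Psme2 were 1.20, 1.03, 1.16, 1.14 and 1.31.

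**Figure D4:**
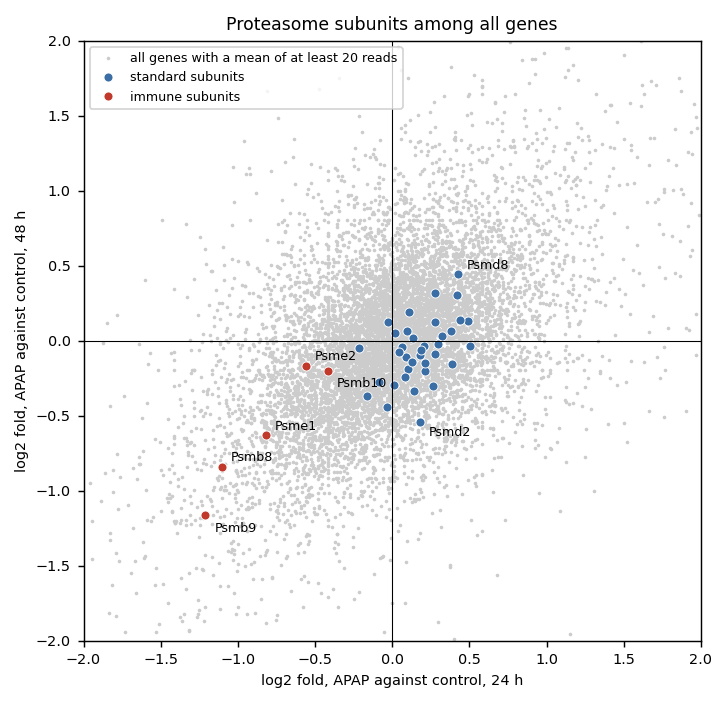
Log2 fold at 24 h (horizontal) and at 48 h (vertical) of the 36 standard subunits (blue) and 5 immune subunits (red) over all genes averaging 20 or more normalized reads (grey, of which 241 lie outside the axes). All 5 immune subunits lie left of and below 0, with Psmb8, Psmb9 and Psme1 furthest out and Psmb10 and Psme2 nearer to the standard subunits, while most standard subunits lie to the right of 0 and near or below 0 on the vertical axis, with Psmd8 the highest and Psmd2 the lowest of them at 48 h.

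The 2 control libraries bear on these differences, because each fold at 24 h and at 48 h uses its own control. At 48 h against 24 h, 0 of the 41 members differed 1.5-fold between the controls, where 6.13% of all genes were higher and 6.04% lower. By counting error, 12 members (29.3%) were lower in the control library at 48 h, against 9.17% of all genes, and 2 (4.88%), Psmb10 and Psme1, were higher, against 11.9%. Here too the shares of all genes are not matched for read depth. The median over the 36 standard subunits was -0.15 in log2, and over the 5 immune subunits 0.32. Standard subunits thus differed between the control pools by about as much as between APAP and control at 24 h, where their median was 0.18. The part of the control pools in the time difference was not tested.

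Across the 41 members the log2 folds at 24 h and 48 h, which come from different libraries, gave Spearman's rho of 0.597 and Pearson's r of 0.766. Without the 5 immune subunits these were 0.459 and 0.466 over 36 genes. Genes of a library share its depth and are not independent, so the coefficients are a description.

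The reads of some subunits cannot be assigned with certainty. For 11 members, the last 300 bases of the transcript matched another annotated transcript at 95% identity or more over at least 100 bases, and among the pairs named here Psmb5 matched Gm3375 and Psmb3 matched Gm4950. Gm4950 had 239 and 214 reads in the control libraries and 383 and 246 in the APAP libraries. With the reads of Gm3375 added to Psmb5, the odds ratio of immune to standard beta reads was 0.494 at 24 h and 0.671 at 48 h. For Psme1, whose copy is Gm7776 (36 to 63 reads), Psme2, whose copy is Psme2b, Psma5 and Psmd2 the same uncertainty holds, and the entries of Psma2, Psmb5 and Psmc5 each also carry the identifier of a second gene.

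Genes that act with the proteasome were read from lists of related genes. Their counts, and those of the cell type markers further below, are to be read against the shares of all tested genes. These shares were 11.5% higher and 13.3% lower at 24 h and 10.6% higher and 13.6% lower at 48 h. Of 14 tested assembly and accessory factors, 2 were higher and 0 lower at 24 h, and 2 were higher and 1 lower at 48 h. Their medians were -0.10 and -0.30, of which the first changes sign with library totals. Pomp, the chaperone that matures the beta ring, lay at 0.799 times control (0.718 to 0.889) at 24 h and 0.775 (0.691 to 0.868) at 48 h. Adrm1, a ubiquitin receptor of the 19S particle, lay at 0.914 (0.750 to 1.12) and 0.842 (0.673 to 1.05). Zfand2a, an arsenite-inducible proteasome-associated protein, was the member of the list that was higher at both times. It had 9 and 15 reads in the control libraries and 65 and 42 in the APAP libraries, folds of 5.41 (2.68 to 12.4) and 2.45 (1.33 to 4.75). These folds became 3.44 and 3.85 against the control pool of the other time point, so their order depended on the control.

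Of 15 tested ubiquitin and shuttle genes, 5 were higher and 2 lower at 24 h, and 1 was higher and 1 lower at 48 h. Ubb, a polyubiquitin gene, was past the 1.5-fold limit at 24 h only, and with library totals at both times. It had 985 and 943 reads in control and 2138 and 1556 after APAP, folds of 1.63 (1.51 to 1.76) and 1.44 (1.33 to 1.57). Uba6, an alternative ubiquitin-activating enzyme with 11 to 41 reads, had folds of 1.92 (1.05 to 3.66) and 2.54 (1.25 to 5.59). Sqstm1, the adaptor p62, had folds of 1.64 (1.54 to 1.75) and 0.942 (0.871 to 1.02).

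Among 12 tested genes that control proteasome transcription, 3 were higher and 0 lower at 24 h, and 2 were higher and 1 lower at 48 h. Nfe2l1, the factor known to raise subunit genes when the proteasome is impaired, lay at 0.900 times control (0.742 to 1.09) at 24 h and 0.668 (0.533 to 0.835) at 48 h, where it was past the limit against the other (0.589) and the summed (0.627) control pools. Nfe2l2, its relative in the oxidative stress response, lay at 0.792 (0.633 to 0.991) and 0.949 (0.763 to 1.18). Maff, a small Maf protein that pairs with both, had 7 and 9 reads in the control libraries and 152 and 47 in the APAP libraries, folds of 16.3 (7.71 to 41.2) and 4.57 (2.21 to 10.6). Stat3 had folds of 1.97 (1.65 to 2.36) and 1.5 (1.26 to 1.81).

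Genes of MHC class I antigen processing work downstream of the immunoproteasome. Of 12 tested, 1 was higher and 3 were lower at 24 h (13.3% of all genes were lower), and 0 were higher and 2 lower at 48 h (13.6%), with medians of -0.32 and -0.21. Library totals left 1 higher and 1 lower at 24 h, and at 48 h gave a median of 0.06. B2m, the invariant chain of class I molecules, had 9311 and 11560 reads in the control libraries and 8144 and 7078 in the APAP libraries. Its folds of 0.655 (0.636 to 0.675) and 0.535 (0.520 to 0.552) made it the list's only gene that was lower at both times, although with library totals its fold at 24 h, 0.746, did not pass. Tap2, a peptide transporter subunit, lay at 0.533 (0.350 to 0.806) and 0.913 (0.594 to 1.41). Against the control pool of the other time point these folds were 0.741 and 0.657, so that Tap2 was past the limit at 48 h and not at 24 h. Nlrc5, a class I transactivator, had 26 to 37 reads and folds of 0.866 (0.525 to 1.44) and 1.14 (0.666 to 1.98).

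The interferon response list did not move as 1 block. Of 12 tested genes, 2 were higher and 2 lower at 24 h, and 2 were higher and 1 lower at 48 h, with medians of -0.28 and -0.03. The second changed sign with library totals (0.23) and against the other (0.12) or the summed (0.02) control pools. Irf1, an interferon-induced transcription factor, lay at 0.822 (0.490 to 1.38) and 0.999 (0.647 to 1.55), and its fold at 24 h against the other control pool, 0.643, was past the limit. Cxcl9, a chemokine induced by interferon gamma, had 37 and 45 reads in the control libraries and 12 and 13 in the APAP libraries, folds of 0.243 (0.115 to 0.476) and 0.253 (0.125 to 0.477). Irf8, a factor of myeloid and B cells, was the list's only gene higher at both times, at 2.03 (1.14 to 3.77) and 1.99 (1.12 to 3.68).

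**Figure D5:**
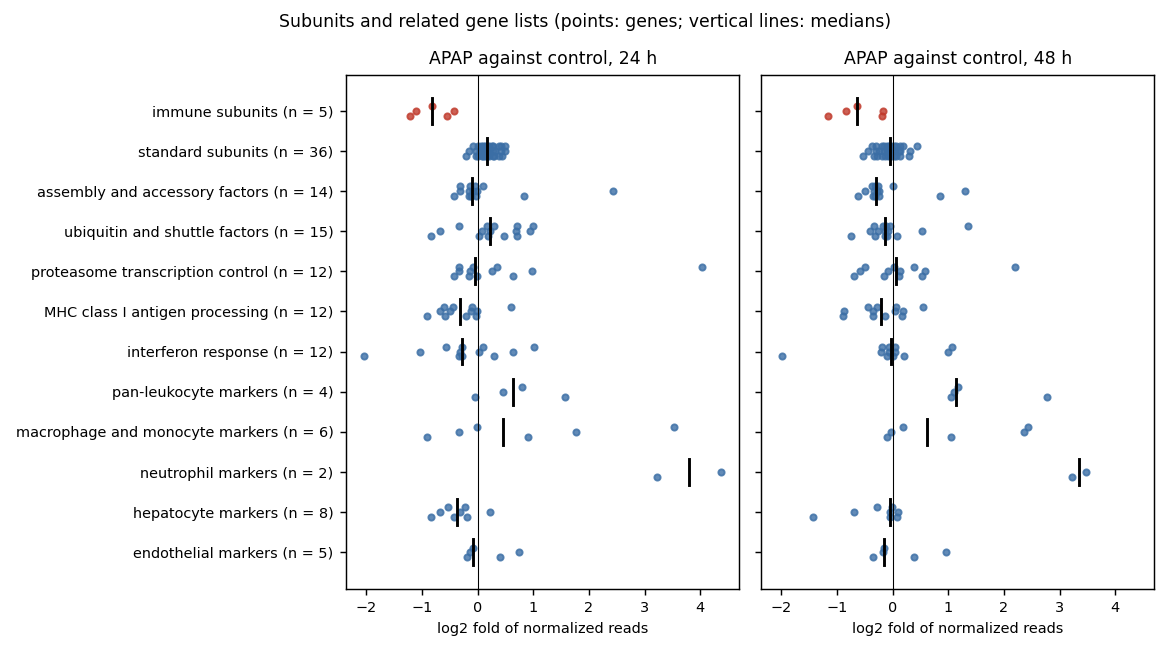
Log2 folds (horizontal axis) at 24 h (left) and 48 h (right) of the tested genes of the immune subunits (red), the standard subunits, the related gene lists and the cell type markers (blue), with a vertical line at each median and the number of tested genes in brackets. The immune subunits lie left of 0 in both panels, while the medians of the pan-leukocyte and neutrophil markers lie right of 0.

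Blood cells carry the immunoproteasome constitutively, so their markers are given beside the immune subunits. The 5 pan-leukocyte markers summed to 38.3 and 35.1 RPM in the control libraries at 24 h and 48 h and to 66.3 and 107 in the APAP libraries. Of the 4 tested, 2 were higher at 24 h and 4 at 48 h, and 0 were lower. Cd52, the most abundant over the 4 libraries together, had folds of 1.75 (1.30 to 2.37) and 2.08 (1.56 to 2.80). In the control library at 24 h Cd52 lay below Laptm5, with 66 reads against 70. Coro1a, an actin regulator of blood cells, had 18 and 15 reads in control and 71 and 117 after APAP, folds of 2.96 (1.74 to 5.27) and 6.82 (3.97 to 12.6).

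Of the macrophage and monocyte markers, 6 of 8 were tested, and Lyz2, Cd68 and Cd14 were higher at both times. The 8 markers' sum was 126 and 131 RPM in control and 190 and 333 after APAP, and Lyz2, the most abundant over the 4 libraries together although below Clec4f and Csf1r in both control libraries, had folds of 3.42 (2.70 to 4.39) and 5.39 (4.38 to 6.67). Clec4f, a marker of resident Kupffer cells, lay at 0.534 (0.441 to 0.645) at 24 h and 0.985 (0.831 to 1.17) at 48 h, and it was the list's only gene that was lower at either time. Cd68 had folds of 1.88 (1.40 to 2.56) and 5.11 (3.87 to 6.86). The neutrophil marker S100a8 had 5 and 10 reads in control and 139 and 106 after APAP, folds of 20.8 (8.71 to 65.2) and 9.27 (4.85 to 19.9), and S100a9 had 6 and 1 reads in control and 75 and 38 after APAP.

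Lymphocytes were close to the limit of these libraries. None of the 7 markers of T, B and NK cells was tested, their sum was 3.29 and 2.89 RPM in control and 1.75 and 3.44 after APAP, and Cd3d, Cd79a and Ms4a1 had 3 reads or fewer in each library. Of 5 endothelial markers 1, Pecam1, was higher at both times and 0 were lower. Of 4 stellate cell markers 2, Des and Pdgfrb, were higher at both times (Pdgfrb at 24 h did not pass against the other or the summed control pools, at 1.29 and 1.4) and 1, Lrat, was lower at 24 h. The only tested cholangiocyte marker, Sox9, was higher at both times, at 3.97 and 1.79 times control. Of the 8 hepatocyte markers, 2 were lower at 24 h and 2 at 48 h, and 0 were higher. Cyp2e1, the enzyme that turns APAP into its reactive product, was the one lower at both times, at 0.623 (0.601 to 0.645) and 0.369 (0.354 to 0.385), the first of which was 0.709 with library totals and did not pass. The part of each cell type in the folds of the subunits was not tested.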

How the data were processed

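The data were 4 MACE libraries of pooled mouse liver RNA, 1 per group. The authors used unique molecular identifiers to drop duplicate reads, clipped low-quality ends (cutadapt) and poly(A) stretches, used mm10 for the mapping and deposited the read counts per gene from HTSeq, without normalization. Tool versions are not given in the sources used here. The table's other columns (the authors' RPM, log2 ratios, p-values and false discovery rates, for which the study names DESeq2) were not used. Groups were taken from the labels.

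Size factors were computed with DESeq2 1.42.0 in R 4.3.3, over 16338 genes with reads in all 4 libraries. These size factors were 0.880 and 0.933 for the control and 1.17 and 1.07 for the APAP libraries at 24 h and 48 h. The alternatives, edgeR 4.0.16 (TMM) and library totals, were computed from the counts of all entries. With 1 library per group no differential test of either package was run. A fit with treatment and time as terms was not run either. Genes averaging 20 or more normalized reads were compared, and counts under 3 on either side of a fold were set to 3. For a fold, the 95% Clopper-Pearson interval of APAP reads among the reads of both libraries was scaled by the size factors, and odds ratios use the conditional exact interval. Intervals and floors cover counting error only. Folds at the 2 times were compared by a two-sided exact conditional test with Benjamini-Hochberg adjustment. Scripts used Python 3.11.15, numpy 2.4.6, scipy 1.17.1, pandas 2.3.3 and matplotlib 3.10.9 and were tested on simulated data.

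Positions came from GENCODE M21 (GRCm38), similar transcript ends from blastn 2.17.0, and promoters and motif shares from RefSeq (GRCm38.p6). Values are given in every library for the immune beta subunits and their partners, the Psme genes, the 5 highest and 3 lowest members at each time and members with few reads. From the lists, genes changed 1.5-fold in 1 direction at both times are named, at most 5 per list, with Nfe2l1, Nfe2l2, Irf1, Nlrc5, Pomp and Adrm1. Other genes were named after their values were seen. The members and lists were chosen with earlier results of these data known. The genes Paaf1 and Ly6g of the lists were not analysed here, and some listed genes are not reported here.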

Additional observations from a re-analysis of the deposited data

Results flagged for a closer look

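For 7 standard subunits the fold after APAP differed between 24 h and 48 h by the exact conditional test (two-sided, adjusted over 10066 genes), with the lower fold at 48 h each time. The fold at 48 h divided by that at 24 h was 0.608 for Psmd2, 0.686 for Psmc4, 0.721 for Psmb7, 0.752 for Psmb1, 0.753 for Psmb4, 0.778 for Psma6 and 0.809 for Psma7. The test compares 4 libraries of 1 per group, its p-values cover counting error only, and differences between the control pools enter it.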

How the results depend on the processing

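Alternatives were tried one at a time. With library totals, 5 members were higher at 24 h (Psmd10, Psma5, Psma7, Psmd8 and Psmb3, against 20% of all genes) and 1 at 48 h (Psmd8, against 22.7%), and 1 was lower at 48 h (Psmb9, against 6.84%). The summed fold of all members was then 1.24 at 24 h and 1.11 at 48 h, where it changed direction, and the median log2 fold was 0.32 and 0.18. Against the control pool of the other time point, 3 members were higher (12.6% of all genes) and 4 lower (15.2%) at 24 h and 2, Psmb8 and Psmb9, lower at 48 h (12.5%), the summed folds were 1.16 and 0.871, the medians 0.26 and -0.24, and the odds ratios of immune to standard beta reads 0.398 and 0.850. Against the sum of both control pools, 1 member was higher (10.2% of all genes) and 4 lower (13.7%) at 24 h and 2 lower at 48 h (12.1%), the summed folds were 1.13 and 0.898, and the medians 0.20 and -0.18. Without the immune subunits the summed folds were 1.14 and 0.953. By an interval that leaves out 1, 13 members were higher and 5 lower at 24 h, and 2 were higher and 11 lower at 48 h, or 23 and 22 higher at 24 h and 21 and 17 lower at 48 h with the other and the summed controls. At 2-fold, 2 members (Psmb8 and Psmb9) were lower at 24 h and 1 (Psmb9) at 48 h, and 0 were higher at either time. The shares of all genes at 2-fold are not given here, so these counts have no background. The odds ratios at 24 h and 48 h were 0.373 and 0.547 for Psmb8 with Psmb5, 0.404 and 0.426 for Psmb9 with Psmb6, and 0.681 and 1.10 for Psmb10 with Psmb7, the last of which changed direction. The number of members whose folds differed between times was 7, and 8, 5, 6 and 8 with TMM, library totals, no minimum on the mean and a mean of at least 100. For the 7, the shares of all genes were 6.86% lower and 5.4% higher at 48 h. The shares under the alternatives are not given here. Of the values of single subunits recomputed this way, 110 moved by less than their counting interval and 26 by more. Adding the reads of near-identical copies, and repeating the interval counts and the folds of the list genes under other scalings and controls, were chosen after seeing the data. The former changed no direction. No fit paired by replicate number was made, since each group has 1 library and the labels give no replicate numbers. A fit with treatment and time as terms, with time as a block, was not run, and no library could be left out of a group of 1. With 1 pool per group, differences between pools cannot be told apart from those between conditions, and depth limits genes such as Psmd10 and Psmb9.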
